A study of Mus musculus with 17 samples.

Results

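The kidneys compared here differ in both oxygen-regulated transcription factors of the HIF family. RNA from 3 PRCC-TFE3 KI/Hif1α/Hif2α DKO kidneys (DKO) was set against RNA from 3 PRCC-TFE3 KI kidneys (KI), 6 of the 17 libraries of the series, chosen by the titles and genotypes of the samples. Both groups carried lsl-PRCC-TFE3 KI, which holds the fusion of PRCC with the transcription factor TFE3 behind a stop cassette, and both carried KSP-Cre(+), a Cre driven by the Cadherin 16 promoter in kidney tubule cells. The DKO mice were in addition HIF1af/f and HIF2af/f, and KI mice had neither flox allele in their labels. The ages and sexes of the mice are not in the labels. The other groups served as references. They were 4 Cre(-) kidneys with the same fusion allele and no Cre, of which replicates 1 and 2 were also HIF1af/f, 4 KI/Hif1α KO kidneys (HIF1af/f) and 3 KI/Hif2α KO kidneys (HIF2af/f), both of which carried the fusion allele and KSP-Cre(+). Cre acts in tubule cells, so stromal, vascular and immune cells of the DKO kidneys kept both genes by design.

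HIF1α and HIF2α are the oxygen-sensitive members of dimeric transcription factors that share the partner ARNT. In oxygen they are hydroxylated, bound by the VHL protein and degraded, and when they persist they raise glucose transport, glycolysis, red cell and vessel growth signals. TFE3 belongs to the MiT/TFE family, which drives lysosome and autophagy genes, and its fusions drive a class of renal cell carcinoma. The comparison asks what in the fusion-expressing kidney changed when both HIFα genes were floxed. Values are CPM, counts scaled to the same total in every library after TMM correction, and differences are log2 fold changes of DKO relative to KI with their standard error (SE). The test was the quasi-likelihood one of edgeR, adjusted by the Benjamini-Hochberg method over 17011 genes. The libraries held 16504419 to 18173319 counts in KI and 17347474 to 18635282 counts in DKO, so that 3 counts, taken as the detection floor for counting error only, equalled about 0.161 to 0.182 CPM. Sample numbers in the files largely follow the groups, so their order and the genotype cannot be told apart. The labels name separate samples but not litters or batches. The p-values rest on the spread between samples within groups, estimated over all 17 libraries and not over the KI and DKO kidneys alone.

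The targeted genes kept much of their RNA in whole kidney. Hif1a had 228, 232 and 184 CPM in KI, against 188, 174 and 203 CPM in DKO (log2 fold change -0.19, SE 0.14, edgeR adjusted p = 0.395), values that overlapped between the groups. Epas1, the gene of HIF2α, stood at 173, 192 and 179 CPM in KI, against 156, 165 and 158 CPM in DKO, where each DKO value lay below each KI value by a small margin (log2 fold change -0.18, SE 0.09, edgeR adjusted p = 0.208). Neither difference passed the threshold. The authors' estimates for the 2 main coding isoforms of Hif1a did not move together. The isoform with the higher level in KI, Hif1a-201, had 60.2, 67.0 and 47.6 TPM in KI and 48.7, 41.7 and 46.4 TPM in DKO, whereas Hif1a-202 had 17.8, 11.4 and 9.12 TPM in KI and 17.3, 17.96 and 26.7 TPM in DKO. Both isoforms hold the same second exon, and counts over whole transcripts do not show whether a floxed exon was removed. Among the other components of the pathway, Vhl, whose product marks HIFα for degradation, was lower in DKO, with 41.0, 45.4 and 51.8 CPM in KI and 32.6, 27.7 and 28.8 CPM in DKO (log2 fold change -0.63, SE 0.13, edgeR adjusted p = 0.00696). Vhl was the only 1 of 10 pathway components past the threshold (10.0%, beside 6.19% of all genes lower).

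Between DKO and KI kidneys 1111 genes were higher (6.53% of those tested) and 1053 were lower (6.19%), 12.7% in all. These shares are the background for the counts of the gene lists below. Of these, 1082 of the higher and 1022 of the lower genes had no overlap between the 3 KI and the 3 DKO values, against 2807 and 2923 of all genes tested. The higher genes changed by a median log2 fold change of 0.87 and the lower by -0.60, and 459 of the higher but 230 of the lower changed by more than 1. The median over all genes was -0.003. Single libraries set these counts: without KI replicate 2 or 3 the higher genes numbered 706 and 423, and without DKO replicate 2 or 3 they numbered 369 and 407. For the lower genes the counts were 492 without KI replicate 3 and 353 and 383 without DKO replicates 2 and 3. With limma on log2(TPM + 1) the split was 1206 higher and 520 lower. In markers of other tissues KI replicates 2 and 3 stood apart. KI replicate 2 had a summed adipocyte marker level of 4564 TPM against 202.1 and 359.1 TPM in the other KI kidneys and 272.3 to 702.7 TPM in DKO. KI replicate 3 had a summed level of blood and erythroid markers of 1174 TPM, against 80.4 and 105.8 TPM in the other KI kidneys and 105.6 to 188.9 TPM in DKO. None of the 7 erythroid markers passed with edgeR or DESeq2, although 5 were lower at an unadjusted p under 0.05. Neither of the 2 Y-linked genes tested passed with edgeR or DESeq2, or at an unadjusted p under 0.05. With an adipocyte marker score as a covariate 1027 genes were higher and 978 lower. The part of blood in the results was not tested beyond leaving out KI replicate 3.

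**Figure D1:**
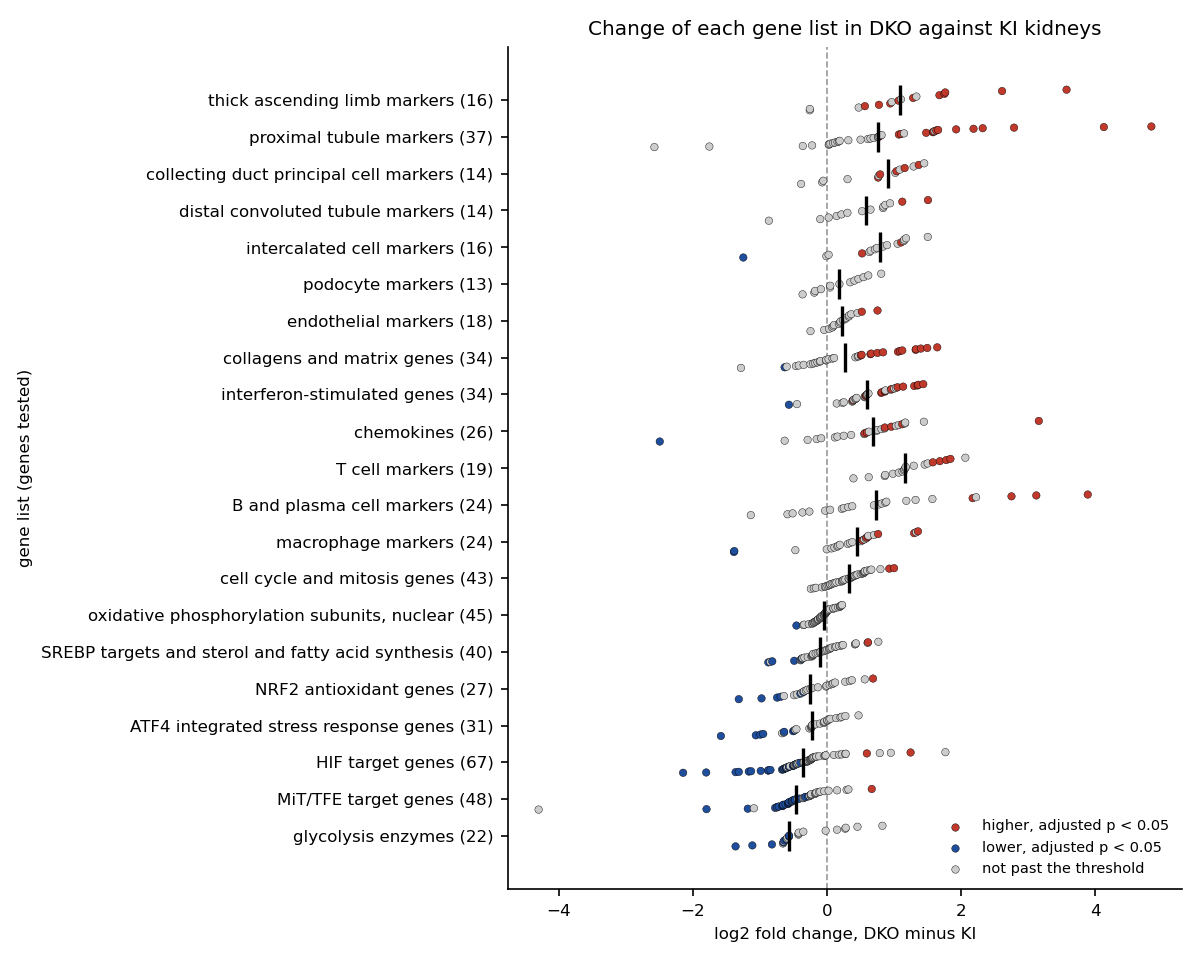
Log2 fold change of each tested member of 21 gene lists in DKO relative to KI kidneys (x axis), with lists on the y axis and the number of members tested in brackets. Points are genes, coloured where the edgeR adjusted p was under 0.05, and black bars are list medians, which run from 1.17 for T cell markers and 1.08 for thick ascending limb markers down to -0.56 for glycolysis enzymes.

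Many genes of differentiated tubule cells were higher in DKO kidneys, among them those of the thick ascending limb, which dilutes the urine. Of 16 thick ascending limb markers, 10 rose (62.5%, beside 6.53% of all genes), with a list median of 1.08. Umod, which encodes uromodulin, the main protein of normal urine, had 1193, 657 and 833 CPM in KI, against 2256, 3630 and 3146 CPM in DKO (log2 fold change 1.75, SE 0.29, edgeR adjusted p = 0.00266). The lowest DKO value was thus above the highest KI value, and the Cre(-) kidneys had 2906 to 3948 CPM, a range that the DKO kidneys reached in 2 of 3 libraries. Cldn10, a claudin that forms sodium pores between cells of this segment, had 22.9, 12.5 and 20.6 CPM in KI and 37.3, 48.0 and 50.9 CPM in DKO (log2 fold change 1.28, SE 0.23, edgeR adjusted p = 0.00429). It remained below the Cre(-) range of 164 to 184 CPM. Ptger3, a prostaglandin receptor, rose from 44.8, 45.9 and 39.9 CPM to 69.2, 75.5 and 78.6 CPM (log2 fold change 0.77, SE 0.14, edgeR adjusted p = 0.0039), and Sostdc1, a secreted BMP and Wnt antagonist, from 20.6, 16.8 and 11.9 CPM to 33.2, 32.9 and 37.0 CPM (log2 fold change 1.07, SE 0.19, edgeR adjusted p = 0.00436). All of these 4 genes stayed past the threshold whichever KI or DKO library was left out. In bulk tissue, fewer cells of a type and less RNA per cell cannot be told apart. The list count was 5 without KI replicate 3, 6 without DKO replicate 2 and 8 to 12 without KI replicate 1 or 2 or DKO replicate 1, with 7 without DKO replicate 3.

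Proximal tubule genes serve reabsorption and secretion. Of 37 markers 14 were higher (37.8%, beside 6.53% of all genes), with a median of 0.76. With edgeR 0 were called lower, though 33 were above zero and 4 below. Acsm3 stood at -2.57 (SE 0.93, edgeR adjusted p = 0.0805) and Cyp2e1 at -1.75 (SE 0.81, edgeR adjusted p = 0.166). At an unadjusted p under 0.05, 2 markers were lower. DESeq2 called 1 lower, and edgeR called 2 lower without KI replicate 1. Kap, the androgen-regulated kidney protein of the proximal tubule, had 19.3, 18.5 and 13.2 CPM in KI, against 181, 610.4 and 98.8 CPM in DKO (log2 fold change 4.13, SE 0.90, edgeR adjusted p = 0.0101). DKO replicate 2 was the highest and the group spanned a wide range, and the Cre(-) kidneys stood far above at 5686 to 10510 CPM. Slc22a6, the organic anion transporter OAT1, had 12.0, 8.13 and 19.6 CPM in KI and 52.7, 88.5 and 57.5 CPM in DKO and 433 to 622 CPM in Cre(-) kidneys (log2 fold change 2.32, SE 0.56, edgeR adjusted p = 0.0165). Slc22a7, another organic anion transporter, had 0.977, 0.377 and 0.399 CPM in KI and 6.38, 32.5 and 11.5 CPM in DKO (log2 fold change 4.83, SE 1.24, edgeR adjusted p = 0.0213), beside 213 to 336 CPM in Cre(-). Fbp1, a rate-setting enzyme of gluconeogenesis, was higher by 1.63 (SE 0.40, edgeR adjusted p = 0.0178) and Slc5a1, the glucose transporter SGLT1 of the late proximal tubule, by 0.80 (SE 0.15, edgeR adjusted p = 0.00558). Even where they rose, the proximal genes named here remained below every Cre(-) kidney. The number of markers called higher depended on single libraries. It was 9, 2 and 5 without KI replicates 1, 2 and 3, and 1 and 6 without DKO replicates 2 and 3, against 13 without DKO replicate 1. Summed over the list, levels were 2645 to 2947 TPM in KI, 4094 to 7194 TPM in DKO and 29640 to 40380 TPM in Cre(-), with no overlap between these groups. The single knockouts overlapped DKO, at 3259 to 6377 TPM (Hif1α KO) and 2552 to 5541 TPM (Hif2α KO). Their list medians relative to KI were 0.97 and 0.55.

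Markers of the later nephron segments had medians above zero. Of 14 principal cell markers of the collecting duct 5 rose (35.7%, beside 6.53% of all genes, median 0.91). Avpr2, the vasopressin receptor that controls water reabsorption, had 9.14, 5.28 and 5.25 CPM in KI, against 13.6, 12.6 and 17.6 CPM in DKO (log2 fold change 1.16, SE 0.26, edgeR adjusted p = 0.0119). Apela, a peptide ligand of the apelin receptor, had 48.9, 30.7 and 41.4 CPM in KI and 62.5, 66.8 and 76.0 CPM in DKO (log2 fold change 0.76, SE 0.15, edgeR adjusted p = 0.00555), with the DKO values inside the Cre(-) range of 63.8 to 85.4 CPM in 2 of 3 libraries. Scnn1g, a subunit of the epithelial sodium channel, changed by 1.04 (SE 0.28, edgeR adjusted p = 0.0285) and Gata3, a transcription factor of the collecting duct, by 0.79 (SE 0.24, edgeR adjusted p = 0.039). Of 14 distal convoluted tubule markers 2 rose (14.3%, beside 6.53% of all genes). One was Slc12a3, the thiazide-sensitive sodium chloride cotransporter, at 228, 147 and 217 CPM in KI and 344, 869 and 467 CPM in DKO (log2 fold change 1.505, SE 0.43, edgeR adjusted p = 0.0324), and the other Slc8a1, a sodium calcium exchanger, at 1.12 (SE 0.23, edgeR adjusted p = 0.00715). Among 16 intercalated cell markers Dmrt2 and Car2 rose by 1.11 and 0.52 and Kit, a receptor tyrosine kinase that other cells also use, fell by 1.25. The shares of this list, 12.5% higher and 6.25% lower, stand beside 6.53% and 6.19% of all genes. Kit had 148, 179.7 and 255 CPM in KI and 108, 60.0 and 77.2 CPM in DKO (log2 fold change -1.25, SE 0.28, edgeR adjusted p = 0.011), against 26.5 to 40.9 CPM in Cre(-). Cdh16, the gene whose promoter drives the Cre, had 704, 577 and 625 CPM in KI, against 784, 781 and 812 CPM in DKO (log2 fold change 0.32, SE 0.10, edgeR adjusted p = 0.0397), a call that held in 1 of the 6 fits that left out a library. The principal cell count was 1 without KI replicate 3, 1 without DKO replicate 3, and 3 without KI replicate 2 or DKO replicate 1 or 2. The distal convoluted tubule count was 1 without KI replicate 2 or 3 or DKO replicate 2 or 3. For intercalated cells the number that rose was 6 without KI replicate 1, 3 without DKO replicate 1 and 0 without any of the other 4 libraries.

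The glomerulus and the vessels, which are not the cells that express Cadherin 16, had few markers past the threshold. None of 13 podocyte markers passed the threshold with edgeR (median 0.18; unadjusted p under 0.05 in 3 higher and 1 lower, DESeq2 1 higher). Podxl, a sialomucin of podocytes and endothelium, had 127, 89.5 and 125 CPM in KI and 126, 166 and 142 CPM in DKO (log2 fold change 0.35, SE 0.18, edgeR adjusted p = 0.214), and Synpo, an actin-binding protein of podocyte foot processes, had overlapping values as well (log2 fold change -0.19, SE 0.10, edgeR adjusted p = 0.223). Of 18 endothelial markers 2 rose, both of them transcription factors. They were Sox17 with 10.8, 8.78 and 7.02 CPM in KI and 15.6, 13.4 and 15.7 CPM in DKO (log2 fold change 0.75, SE 0.15, edgeR adjusted p = 0.00713) and Erg at 0.52 (SE 0.16, edgeR adjusted p = 0.0489), the latter lost whichever library was left out. The endothelial count was 1 without KI replicate 2 or 3 or DKO replicate 2 or 3, and 3 without DKO replicate 1. The shares called in podocytes and endothelium, 0.0% and 11.1% higher, stand beside the 6.53% of all genes, and their difference from the tubule lists was not tested. Summed over the podocyte list, levels were 123.6 to 161.5 TPM in KI and 169.3 to 190.0 TPM in DKO, without overlap. The endothelial sums overlapped, at 388.0 to 446.3 TPM in KI and 442.5 to 555.4 TPM in DKO.

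**Figure D2:**
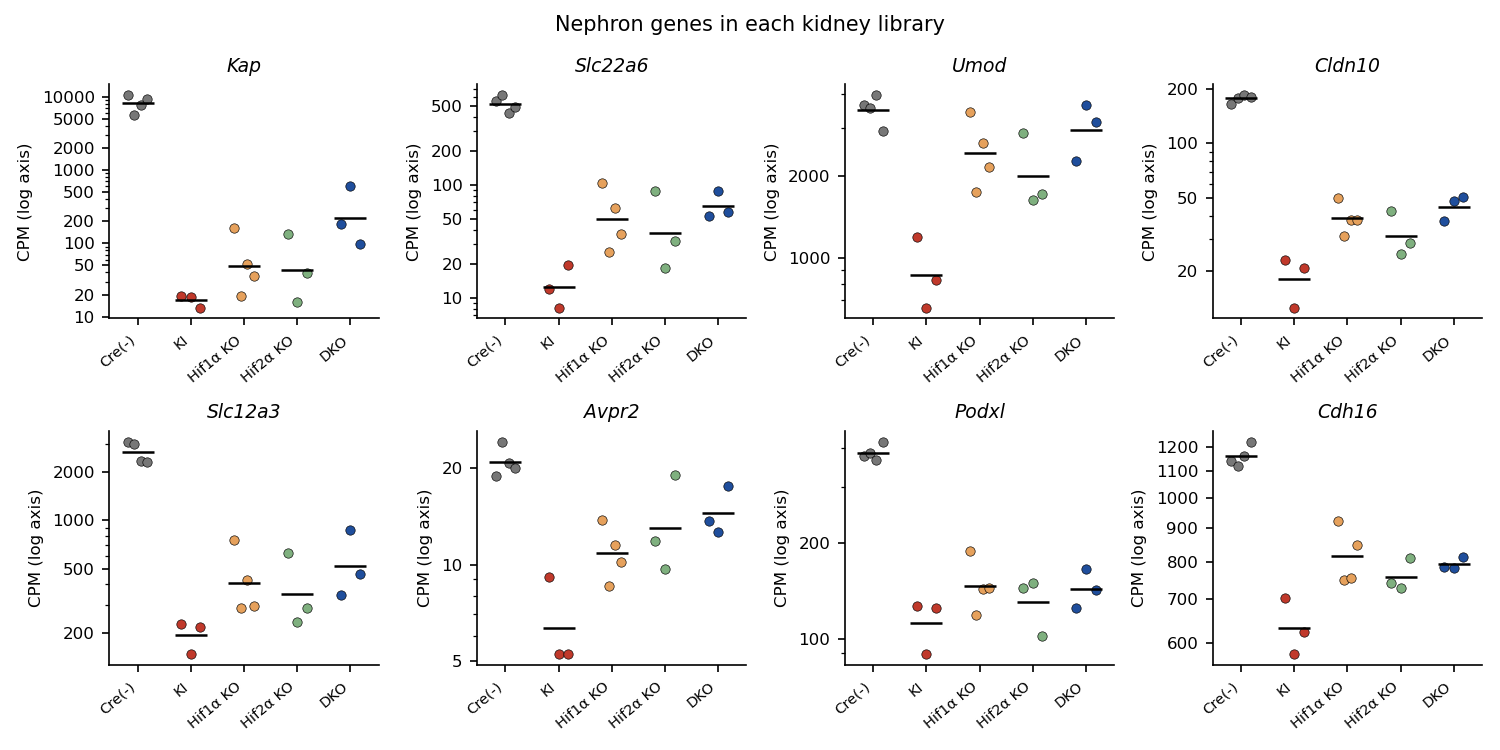
CPM (log axis) of 8 kidney genes in each of the 17 libraries, grouped on the x axis, with each point a kidney and each bar the geometric mean of its group. The DKO values of Kap, Slc22a6, Umod, Cldn10, Slc12a3, Avpr2 and Cdh16 lay above all KI values, and those of Podxl overlapped them.

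Part of the HIF target genes fell in DKO. Of 67 known targets tested, 23 fell (34.3%) and 2 rose, with a median of -0.35, beside a background of 6.19% of genes lower. Slc16a3, the lactate exporter MCT4, fell most of those named, with 8.39, 12.1 and 37.8 CPM in KI, against 4.97, 4.00 and 4.20 CPM in DKO (log2 fold change -2.15, SE 0.44, edgeR adjusted p = 0.00739). The Cre(-) kidneys had 1.23 to 1.77 CPM, below every DKO value. Mif, a cytokine gene, had 222, 191 and 284 CPM in KI and 145, 127 and 116 CPM in DKO (log2 fold change -0.84, SE 0.15, edgeR adjusted p = 0.00475) and its DKO values lay within or below the Cre(-) range of 134 to 179 CPM. Hk2, hexokinase of the first step of glycolysis, had 477, 417 and 355 CPM in KI and 226, 139.8 and 120.1 CPM in DKO (log2 fold change -1.36, SE 0.41, edgeR adjusted p = 0.0414), and stayed far above the 1.01 to 2.47 CPM of Cre(-) kidneys. The call for Hk2 held in 1 of the 6 fits that left out a library. Ccnd1, the gene of cyclin D1, went from 1672, 1586 and 1013 CPM to 965, 634 and 728 CPM (log2 fold change -0.88, SE 0.20, edgeR adjusted p = 0.0115), and Vegfa, the main vessel growth factor, from 193, 214 and 315 CPM to 159, 188 and 179.5 CPM (log2 fold change -0.46, SE 0.14, edgeR adjusted p = 0.038). The targets that rose were Car9, carbonic anhydrase 9, at 1.09, 0.592 and 0.571 CPM in KI and 1.31, 2.06 and 2.00 CPM in DKO (log2 fold change 1.25, SE 0.35, edgeR adjusted p = 0.0329), and Pfkfb4, a regulator of the glycolytic flux, at 0.59 (SE 0.15, edgeR adjusted p = 0.0228). Slc2a1, the glucose transporter GLUT1, had overlapping values of 62.5, 68.6 and 128 CPM in KI and 70.9, 67.0 and 78.9 CPM in DKO (log2 fold change -0.26, SE 0.23, edgeR adjusted p = 0.501). Pdk1, which holds pyruvate out of the mitochondrion, and Ldha, which makes lactate, did not pass either, at -0.34 (SE 0.18, edgeR adjusted p = 0.233) and -0.42 (SE 0.14, edgeR adjusted p = 0.0625), although no DKO value of either reached a KI value. Without KI replicate 3, whose Slc16a3 value was the highest, the number of targets that fell was 8, and without DKO replicate 2 or 3 it was 6 and 3. In the same fits neither target that rose was called.

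Glycolysis enzymes, of which the target list holds several, gave a median of -0.56. Of 22 tested 8 fell (36.4%, beside 6.19% of all genes) and 0 rose. Eno2, an enolase, had 60.9, 48.7 and 39.4 CPM in KI, against 30.9, 18.9 and 19.0 CPM in DKO (log2 fold change -1.11, SE 0.24, edgeR adjusted p = 0.0105), against 1.77 to 2.67 CPM in Cre(-). Aldoa, aldolase A, had 1056, 1030 and 1468 CPM in KI and 799.8, 778 and 759 CPM in DKO (log2 fold change -0.60, SE 0.14, edgeR adjusted p = 0.0116), and Gpi1, which turns glucose 6-phosphate into fructose 6-phosphate, had 737, 692 and 1127 CPM in KI and 556, 542 and 532 CPM in DKO (log2 fold change -0.65, SE 0.15, edgeR adjusted p = 0.0118). For both, KI replicate 3 was the highest and the DKO values fell within the Cre(-) ranges of 735 to 879 CPM and 511 to 609 CPM. The Aldoa values are of the entry with the most counts. Another entry under that symbol held 9, 8 and 9 counts in KI and 12, 7 and 13 counts in DKO. Pfkp, a phosphofructokinase, changed by -0.57 (SE 0.13, edgeR adjusted p = 0.0119). The count of enzymes that fell was 2 without KI replicate 3, 2 without DKO replicate 2 and 0 without DKO replicate 3, against 9 to 12 without any of the other libraries, and DESeq2 called 15. In the opposite pathway, Fbp1 was the 1 of 7 gluconeogenesis enzymes past the threshold (14.3%, beside 6.53% of all genes higher).

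The promoters of the 4 HIF targets with the smallest p that hold the core of a HIF response element are shown, since that core is what HIF binds and these genes were lower. The sequences are from RefSeq on GRCm38.p6, 5′ to 3′ on the gene's strand, from 250 bases before to 50 after the start. Capitals mark ACGTG or its reverse complement CACGT.
Mif, chr10:75860228-75860527, minus strand: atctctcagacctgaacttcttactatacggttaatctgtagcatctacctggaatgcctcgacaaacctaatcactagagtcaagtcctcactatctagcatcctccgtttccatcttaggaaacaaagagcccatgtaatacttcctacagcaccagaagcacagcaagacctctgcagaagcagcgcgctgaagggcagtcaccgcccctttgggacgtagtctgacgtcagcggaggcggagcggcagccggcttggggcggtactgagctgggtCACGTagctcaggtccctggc
Slc16a3, chr11:120948817-120949116, plus strand: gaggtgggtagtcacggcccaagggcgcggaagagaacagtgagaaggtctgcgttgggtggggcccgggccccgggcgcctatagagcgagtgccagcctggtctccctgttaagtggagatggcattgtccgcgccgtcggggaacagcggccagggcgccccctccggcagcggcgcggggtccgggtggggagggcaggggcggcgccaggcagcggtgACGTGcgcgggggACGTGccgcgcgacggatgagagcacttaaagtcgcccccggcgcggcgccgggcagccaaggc
Aldoa, chr7:126799129-126799428, minus strand: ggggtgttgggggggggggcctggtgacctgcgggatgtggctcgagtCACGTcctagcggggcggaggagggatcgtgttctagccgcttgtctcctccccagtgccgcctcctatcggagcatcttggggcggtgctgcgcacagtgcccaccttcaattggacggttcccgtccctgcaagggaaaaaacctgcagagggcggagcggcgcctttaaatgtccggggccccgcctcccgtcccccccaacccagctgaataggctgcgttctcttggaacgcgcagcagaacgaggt
Bhlhe41, chr6:145865371-145865670, minus strand: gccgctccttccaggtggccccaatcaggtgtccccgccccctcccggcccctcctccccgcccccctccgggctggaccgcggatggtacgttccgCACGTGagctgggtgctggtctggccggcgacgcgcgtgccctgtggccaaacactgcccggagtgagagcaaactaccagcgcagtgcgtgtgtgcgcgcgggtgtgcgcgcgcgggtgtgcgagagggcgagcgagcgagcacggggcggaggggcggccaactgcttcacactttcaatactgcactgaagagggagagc
Mif and Aldoa hold 1 such core each, and Slc16a3 holds 2 close to the start. Bhlhe41, a basic helix-loop-helix repressor, holds the longer CACGTG, where the forward and reverse cores overlap. It is printed by the rule for promoters and had 81.0, 102 and 91.1 CPM in KI, against 51.7, 39.0 and 34.2 CPM in DKO (log2 fold change -1.13, SE 0.26, edgeR adjusted p = 0.0133). A match is a description of letters and no evidence of binding. Windows were found by symbol for 786 of the 1053 lower and 802 of the 1111 higher genes, some with several. ACGTG on either strand stood in 27.3% of 1025 windows of lower genes, 17.7% of 1048 windows of higher genes and 23.4% of 15543 windows of all genes tested. CACGTG, the core of the MiT/TFE motif, stood in 13.2%, 6.8% and 9.1% of the same windows. Since CACGTG contains ACGTG, the share with an ACGTG outside a CACGTG was also counted, and it was 16.4% for lower, 11.7% for higher and 15.9% for all genes. On this count the windows of the lower genes stood close to the background. In the HIF target list 51.2% of 80 windows held ACGTG, and in the MiT/TFE list 40% of 40 windows held CACGTG.

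The lysosomal program of the MiT/TFE factors was lower in many of its genes. Of 48 MiT/TFE targets tested, 23 fell (47.9%) and 1 rose, beside the 6.19% lower among all genes, with a median of -0.46. Gpnmb, a glycoprotein of melanosomes and lysosomes used as a marker of TFE3 fusions, had 13010, 14210 and 15630 CPM in KI, against 6415, 2806 and 3113 CPM in DKO, with a log2 fold change of -1.80 (SE 0.37, edgeR adjusted p = 0.00824). It was near zero in Cre(-), at 0.993 to 2.14 CPM, so the fall in DKO left it far above that level. Psap, the precursor of the saposins that help degrade sphingolipids, had 5166, 4754 and 5926 CPM in KI and 3451, 2947 and 2875 CPM in DKO (log2 fold change -0.77, SE 0.13, edgeR adjusted p = 0.00261). Mcoln1, the lysosomal calcium channel, had 198, 185 and 215 CPM in KI and 141, 117 and 121 CPM in DKO (log2 fold change -0.66, SE 0.10, edgeR adjusted p = 0.00229), and Atp6v0d1, a subunit of the proton pump, fell by 0.65 (edgeR adjusted p = 0.00193). Each of these 4 genes stayed past the threshold whichever library was left out, and the number of targets that fell was 15 to 26 over those 6 fits, the lowest without DKO replicate 2 or 3. Ctsk, cathepsin K, went the other way, at 11.8, 9.69 and 12.1 CPM in KI and 15.3, 19.6 and 18.4 CPM in DKO (log2 fold change 0.67, SE 0.17, edgeR adjusted p = 0.0182). Tfe3 itself had 58.0, 51.7 and 60.0 CPM in KI and 51.6, 52.6 and 46.8 CPM in DKO (log2 fold change -0.17, SE 0.08, edgeR adjusted p = 0.192). Prcc was lower by a small amount, at 45.2, 46.5 and 50.7 CPM in KI and 41.7, 38.3 and 38.4 CPM in DKO (log2 fold change -0.27, SE 0.08, edgeR adjusted p = 0.0409), a call held in 2 of the 6 fits without a library. Reads of the fusion can map to either parent gene and cannot be told apart from theirs here.

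**Figure D3:**
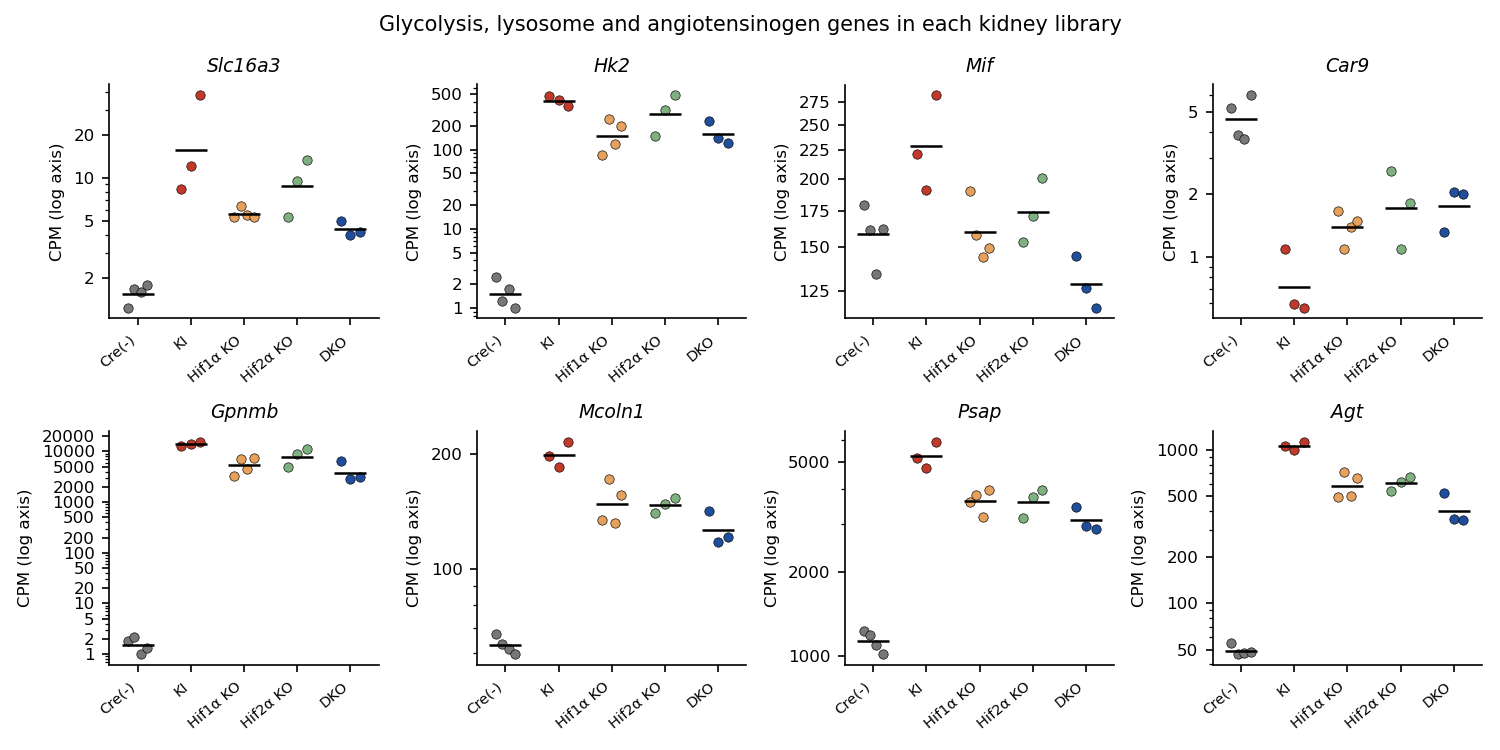
CPM (log axis) of 4 HIF targets (Slc16a3, Hk2, Mif, Car9), 3 lysosomal or melanosomal genes (Gpnmb, Mcoln1, Psap) and Agt in each library, with bars at the geometric mean of each group. All DKO values lay below all KI values except for Car9, where all lay above, and Gpnmb fell from 13010 to 15630 CPM in KI to 2806 to 6415 CPM in DKO.

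Genes of lipid synthesis showed few changes past the threshold. Of 40 SREBP targets and synthesis enzymes 1 rose and 4 fell with edgeR. These shares of 2.5% and 10.0%, beside 6.53% and 6.19% of all genes, stood near the background by the edgeR count. DESeq2 called 2 of the list higher and 8 lower, beside 1446 and 1459 of all genes tested. Srebf1, the gene of SREBP1, had 79.7, 104 and 93.5 CPM in KI, against 97.2, 60.7 and 61.9 CPM in DKO (log2 fold change -0.34, SE 0.19, edgeR adjusted p = 0.265), with DKO replicate 1 among the KI values. Insig1, which retains SREBP in the endoplasmic reticulum, had 172, 136 and 92.8 CPM in KI and 102, 64.8 and 55.9 CPM in DKO (log2 fold change -0.84, SE 0.30, edgeR adjusted p = 0.0789) and missed the threshold, whereas its relative Insig2 passed it with 106, 85.7 and 83.5 CPM in KI and 64.2, 47.9 and 38.2 CPM in DKO (log2 fold change -0.88, SE 0.20, edgeR adjusted p = 0.0132). Sqle and Lss, enzymes of cholesterol synthesis, changed by -0.49 and -0.38, and Acacb, the acetyl-CoA carboxylase at mitochondria, by -0.82 (SE 0.16, edgeR adjusted p = 0.00562). Fasn, the fatty acid synthase, spread over 144, 223 and 99.3 CPM in KI and 312, 105 and 205 CPM in DKO (log2 fold change 0.42, SE 0.36, edgeR adjusted p = 0.471), and Acaca and Acly were at -0.14 (SE 0.33, edgeR adjusted p = 0.821) and -0.22 (SE 0.14, edgeR adjusted p = 0.301). For Fasn and Acaca the replicates of each group differed more than the groups did. Elovl6, which elongates fatty acids, was the member that rose, at 0.61 (SE 0.17, edgeR adjusted p = 0.0263). The number that fell was 7 without DKO replicate 1 and 1 without DKO replicate 2 or 3. Lipid droplet genes fell in 5 of 19 (26.3%, beside 6.19% of all genes). Plin4, a droplet coat protein, had 235, 371 and 304 CPM in KI and 149, 91.2 and 135 CPM in DKO (log2 fold change -1.28, SE 0.18, edgeR adjusted p = 0.00166), beside 8.74 to 12.0 CPM in Cre(-), and Plin3 changed by -0.79 (SE 0.16, edgeR adjusted p = 0.00785). Adipocyte RNA in KI replicate 2 moves with this list, whose summed level there was 1376 TPM against 840.4 and 814.7 TPM in the other KI kidneys. With an adipocyte marker score as a covariate 7 of the list fell. Without that kidney 3 of the lipid droplet genes fell, as without DKO replicate 2. Of the 12 adipocyte markers 9 were below zero (list median -2.31), none of them past the threshold. Only Ucp1, the uncoupling protein of brown fat, passed, with 18.7, 0 and 21.1 CPM in DKO and at most 0.114 CPM in KI, so that 1 DKO kidney had none.

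Few genes of mitochondrial energy metabolism passed the threshold. The shares called were 2.22% lower for nuclear subunits of oxidative phosphorylation and 5.56% higher for citric acid cycle enzymes. For enzymes of fatty acid oxidation and ketone metabolism the share was 3.33% lower. Each lay below the share of all genes, 6.19% lower and 6.53% higher. Of 45 nuclear subunits of oxidative phosphorylation 1 fell, Ndufb8 (log2 fold change -0.46, SE 0.11, edgeR adjusted p = 0.0134), with a list median of -0.05. Of 13 mitochondrially encoded genes 2 were higher at an unadjusted p under 0.05 and 0 passed with edgeR (DESeq2 called 2), and mt-Co1 had 19550, 20970 and 22960 CPM in KI and 19960, 25790 and 24180 CPM in DKO (log2 fold change 0.14, SE 0.13, edgeR adjusted p = 0.518). Sucla2 was the 1 of 18 citric acid cycle enzymes to rise (log2 fold change 0.39, SE 0.11, edgeR adjusted p = 0.0284). Among 30 enzymes of fatty acid oxidation and ketone metabolism 1 fell, the cytosolic Bdh2 (log2 fold change -0.49, SE 0.15, edgeR adjusted p = 0.0466). Bdh2 was not called without KI replicate 3 or any 1 DKO replicate, nor with the replicate block (edgeR adjusted p = 0.066), limma or the adipocyte covariate. Ndufb8 was lost without KI replicate 3 or DKO replicate 2 or 3, and Sucla2 without KI replicate 1 or 3 or DKO replicate 2 or 3.

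Some stress response genes fell in DKO. Of 31 ATF4 targets 7 fell (22.6%, beside 6.19% of all genes). Ddit3, the pro-apoptotic factor CHOP, had 116, 110.4 and 149.8 CPM in KI, against 71.6, 58.2 and 50.8 CPM in DKO (log2 fold change -1.06, SE 0.18, edgeR adjusted p = 0.00342), and Atf3, an early stress factor, had 32.5, 32.9 and 52.5 CPM in KI and 17.1, 11.6 and 10.7 CPM in DKO (log2 fold change -1.58, SE 0.28, edgeR adjusted p = 0.00376). Both remained above the Cre(-) kidneys, which had 15.3 to 22.3 CPM and 1.44 to 3.51 CPM. Another gene entry under the symbol Ddit3 held 0, 0 and 22 counts in KI and 16, 13 and 13 counts in DKO, without such a fall. The values above are of the entry with the most counts. Mthfd2, a mitochondrial folate enzyme, and Sars, the seryl-tRNA synthetase, changed by -0.99 and -0.51. Among 27 NRF2 targets 6 fell (22.2%) and 1 rose (3.7%), beside 6.19% and 6.53% of all genes. Hmox1, the haem oxygenase that also counts as a HIF target and an iron gene, had 92.0, 103 and 188 CPM in KI and 55.0, 48.8 and 49.9 CPM in DKO (log2 fold change -1.31, SE 0.27, edgeR adjusted p = 0.00783). Gstp1, a glutathione transferase, had 100.3, 81.3 and 102 CPM in KI and 53.9, 45.1 and 45.0 CPM in DKO (log2 fold change -0.98, SE 0.15, edgeR adjusted p = 0.0022), and Pgd and G6pdx of the pentose phosphate pathway changed by -0.69 and -0.40. Gstm2 was the member that rose (log2 fold change 0.69, SE 0.20, edgeR adjusted p = 0.0381). Of 17 iron genes 6 fell (35.3%) and 1 rose (5.88%), beside 6.19% and 6.53% of all genes. Ftl1, the ferritin light chain, had 4511, 4252 and 5262 CPM in KI and 3401, 2946 and 2703 CPM in DKO (log2 fold change -0.63, SE 0.16, edgeR adjusted p = 0.0224). Bmp6, which signals iron stores, was at -0.79 (SE 0.15, edgeR adjusted p = 0.00603), while Heph, a ferroxidase, rose by 0.59. Among 25 arrest genes and p53 targets 4 fell (16.0%, beside 6.19% of all genes). Cdkn1a, the cell cycle inhibitor p21, had 69.4, 68.7 and 115 CPM in KI and 42.0, 36.0 and 47.3 CPM in DKO (log2 fold change -1.02, SE 0.24, edgeR adjusted p = 0.0156) and Aen, a nuclease, changed by -0.33 (SE 0.07, edgeR adjusted p = 0.00938). The count of ATF4 targets stayed at 5 to 8 over the fits without a library, whereas that of iron genes was 2 without KI replicate 3, DKO replicate 2 or DKO replicate 3, that of NRF2 targets 3 without DKO replicate 2 and 4 without KI replicate 3 or DKO replicate 3, and that of p53 targets 1 without KI replicate 3 or DKO replicate 2 and 2 without DKO replicate 3.

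Of 28 tubular injury genes tested 2 rose (7.14%) and 4 fell (14.3%), beside 6.53% and 6.19% of all genes, with a median of 0.03. Sox9, a factor of regenerating tubules, had 47.0, 36.9 and 44.9 CPM in KI, against 30.7, 12.9 and 15.3 CPM in DKO (log2 fold change -1.13, SE 0.31, edgeR adjusted p = 0.029), and Cp, ceruloplasmin, fell by 0.86 (edgeR adjusted p = 0.0191), whereas Clu, clusterin, rose by 0.60 (edgeR adjusted p = 0.0361). The number of injury genes that fell was 1 without KI replicate 3, 0 without DKO replicate 2 and 2 without DKO replicate 3, and the number that rose was 0 without KI replicate 2 or DKO replicate 2 or 3 and 1 otherwise. In the renin-angiotensin system Agt, angiotensinogen, had 1063, 1001 and 1127 CPM in KI and 524, 356 and 347 CPM in DKO (log2 fold change -1.38, SE 0.17, edgeR adjusted p = 0.000895), a steady fall to a level still above the 46.6 to 55.0 CPM of Cre(-) kidneys. Ace, which makes angiotensin II, had 26.1, 20.1 and 25.6 CPM in KI and 45.0, 64.6 and 57.5 CPM in DKO (log2 fold change 1.22, SE 0.22, edgeR adjusted p = 0.0045), and Agtr1a, a receptor for angiotensin II, changed by 0.78 (SE 0.23, edgeR adjusted p = 0.0403). The substrate was lower and the converting enzyme and receptor higher, the latter in 1 of the 6 fits without a library. Among 26 Wnt ligands and antagonists 6 rose (23.1%) and 2 fell (7.69%), beside 6.53% and 6.19% of all genes. Sfrp1, a secreted antagonist, had 45.3, 35.6 and 30.7 CPM in KI and 76.0, 139 and 89.6 CPM in DKO (log2 fold change 1.45, SE 0.27, edgeR adjusted p = 0.00494) and Wnt7b, a ligand of the collecting duct, 14.5, 10.8 and 8.50 CPM in KI and 23.3, 20.9 and 37.0 CPM in DKO (log2 fold change 1.27, SE 0.33, edgeR adjusted p = 0.0227), while Wnt4, a ligand of tubule formation and repair, had 74.6, 71.7 and 82.2 CPM in KI and 54.7, 38.3 and 41.4 CPM in DKO (log2 fold change -0.77, SE 0.20, edgeR adjusted p = 0.0252) and Dkk3, a member of the dickkopf family, -0.71 (SE 0.10, edgeR adjusted p = 0.00152). The number that rose was 2 without KI replicate 2 or 3 or DKO replicate 3. Vascular growth genes split likewise, with Vegfb at -0.59 (SE 0.12, edgeR adjusted p = 0.00799) and Aplnr, the apelin receptor, at 9.14, 4.79 and 2.17 CPM in KI and 12.5, 19.6 and 17.2 CPM in DKO (log2 fold change 1.61, SE 0.41, edgeR adjusted p = 0.0205). Of 22 vascular growth genes 3 rose (13.6%) and 2 fell (9.09%), beside 6.53% and 6.19% of all genes. None of the 3 that rose was called without KI replicate 3 or DKO replicate 2 or 3. Of 25 genes that differ between the sexes in mouse kidney 4 rose (16.0%) and 1 fell (4.0%), beside 6.53% and 6.19% of all genes. The count of rises was 1 without KI replicate 2 or 3, 0 without DKO replicate 2 and 2 without DKO replicate 3. Akr1c21, a hydroxysteroid dehydrogenase, had 18.6, 8.35 and 8.62 CPM in KI and 45.0, 67.4 and 41.0 CPM in DKO (log2 fold change 2.11, SE 0.49, edgeR adjusted p = 0.0135), and Odc1, ornithine decarboxylase, 233, 198 and 204 CPM in KI and 120.5, 152 and 138 CPM in DKO (log2 fold change -0.63, SE 0.11, edgeR adjusted p = 0.0032).

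Part of the matrix genes rose in DKO, fibrillar collagens among them. Of 34 tested 14 rose (41.2%) and 1 fell (2.94%), beside 6.53% and 6.19% of all genes. The other 19 did not pass, and the list had a median of 0.27 and 14 members below zero. Col3a1, a collagen of fibroblasts and vessel walls, had 119, 94.5 and 83.2 CPM in KI, against 231, 371 and 325 CPM in DKO (log2 fold change 1.64, SE 0.22, edgeR adjusted p = 0.00149). Every DKO value exceeded every KI value, and the Cre(-) kidneys lay lower still at 24.7 to 46.4 CPM, so that the DKO kidneys lay farther from Cre(-) than the KI kidneys did. Col1a1 had 104, 77.3 and 59.6 CPM in KI and 171, 232 and 199 CPM in DKO (log2 fold change 1.32, SE 0.20, edgeR adjusted p = 0.00209) and Col1a2 113, 112 and 97.2 CPM in KI and 180.1, 268 and 225 CPM in DKO (log2 fold change 1.06, SE 0.14, edgeR adjusted p = 0.00128), in the same order of groups. Col6a3, a microfibrillar collagen, changed by 1.32 (SE 0.26, edgeR adjusted p = 0.00594). Loxl2, which crosslinks collagen and is itself a HIF-regulated enzyme, was the member that fell, with 79.2, 60.8 and 106 CPM in KI and 55.8, 54.7 and 48.1 CPM in DKO (log2 fold change -0.63, SE 0.18, edgeR adjusted p = 0.0308). The 4 collagens passed in all 6 fits without a library, and the count for the list was 6 to 16, the lowest without DKO replicate 2.

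Interferon-stimulated genes rose in the largest number of any immune list. Of 34 tested 14 were higher (41.2%) and 1 lower (2.94%), beside 6.53% and 6.19% of all genes, with a median of 0.60. At an unadjusted p under 0.05, 26 were higher, where 4951 of the 17011 genes tested passed in either direction. Ifi44 had 10.1, 7.92 and 5.48 CPM in KI, against 18.6, 17.3 and 22.0 CPM in DKO (log2 fold change 1.3, SE 0.18, edgeR adjusted p = 0.00166) and Isg15, a ubiquitin-like modifier, 4.25, 2.32 and 1.25 CPM in KI and 7.75, 6.64 and 6.79 CPM in DKO (log2 fold change 1.44, SE 0.31, edgeR adjusted p = 0.00945). Oas2, a sensor of double-stranded RNA, and Zbp1, a sensor of nucleic acids, rose by 1.36 and 1.35. KI replicate 3 was the lowest of the 6 libraries for all 4 genes, and without it 7 genes of the list rose. Mx1 was the exception, with 16.6, 17.3 and 18.8 CPM in KI and 12.9, 12.1 and 10.5 CPM in DKO (log2 fold change -0.57, SE 0.17, edgeR adjusted p = 0.0393). The summed level of the list was 459.8 to 681.3 TPM in KI, 896.9 to 982.9 TPM in DKO and 277.6 to 314.0 TPM in Cre(-). The count was also 8 without DKO replicate 2 and 9 without DKO replicate 3.

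Some lymphocyte genes rose, with a wide spread between kidneys. All 19 T cell markers tested were above zero (median 1.17), of which 4 passed (21.1%, beside 6.53% of all genes higher). Cd3d, part of the T cell receptor complex, had 1.32, 1.83 and 0.571 CPM in KI, against 4.58, 3.53 and 3.90 CPM in DKO (log2 fold change 1.68, SE 0.41, edgeR adjusted p = 0.0176), and Lck, its kinase, 3.16, 5.60 and 2.00 CPM in KI and 12.3, 13.2 and 6.74 CPM in DKO (log2 fold change 1.58, SE 0.42, edgeR adjusted p = 0.0254). Without KI replicate 3, the lowest in both, 0 of the markers passed with edgeR, and 1 passed without KI replicate 1 or any 1 DKO library. Of 24 B and plasma cell markers 4 rose (16.7%, beside 6.53% of all genes). All 4 were immunoglobulin genes or Jchain, the joining chain of secreted antibody. Jchain had 42.9, 39.6 and 16.7 CPM in KI and 229, 337 and 102 CPM in DKO (log2 fold change 2.75, SE 0.71, edgeR adjusted p = 0.0223) and Igkc, the kappa constant region, 1198, 864 and 676 CPM in KI and 5179, 5205 and 1948 CPM in DKO (log2 fold change 2.17, SE 0.59, edgeR adjusted p = 0.027). Ighg2c, a heavy chain constant region, had 51.3, 29.3 and 32.8 CPM in KI and 1343, 256 and 79.4 CPM in DKO (log2 fold change 3.89, SE 1.10, edgeR adjusted p = 0.0321), a spread of 1343 to 79.4 CPM within DKO, and Ighg2b overlapped between the groups. Reads of immunoglobulin genes can be shared among near-identical copies, and their split is uncertain. The number of B and plasma cell markers that rose was 0 without KI replicate 3 or DKO replicate 2 and 1 without DKO replicate 1.

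Macrophage genes went both ways. Of 24 markers 6 rose (25.0%) and 2 fell (8.33%), beside 6.53% and 6.19% of all genes. Adgre1, the macrophage antigen F4/80, had 12.7, 17.8 and 12.0 CPM in KI, against 20.6, 27.3 and 24.3 CPM in DKO (log2 fold change 0.76, SE 0.19, edgeR adjusted p = 0.0197), and Clec7a, a receptor for fungal glucans, 8.34, 10.8 and 4.28 CPM in KI and 22.3, 20.1 and 15.2 CPM in DKO (log2 fold change 1.299, SE 0.28, edgeR adjusted p = 0.0105). Itgax, an integrin of dendritic cells and macrophages, had 13.6, 13.5 and 3.65 CPM in KI and 27.3, 27.0 and 24.3 CPM in DKO (log2 fold change 1.36, SE 0.35, edgeR adjusted p = 0.0208). Cd68, a lysosomal glycoprotein that is also used as a macrophage marker, had 1128, 1061 and 1151 CPM in KI and 577, 351 and 348 CPM in DKO (log2 fold change -1.39, SE 0.21, edgeR adjusted p = 0.00209) and 3.24 to 5.76 CPM in Cre(-). Its direction was opposite to that of the 3 surface markers named here. Cd163, a haemoglobin scavenger receptor, fell with overlapping values (log2 fold change -1.38, SE 0.37, edgeR adjusted p = 0.0257). The number of macrophage markers that rose was 4 without KI replicate 1, 3 without KI replicate 3 or DKO replicate 1 and 1 without DKO replicate 2 or 3. Chemokines included 6 of 26 that rose (23.1%), among them Cxcl16, with 116, 97.4 and 112 CPM in KI and 169, 147 and 163 CPM in DKO (log2 fold change 0.56, SE 0.11, edgeR adjusted p = 0.0061), and Ccl22, a ligand that attracts regulatory T cells, with 0.575, 0.108 and 0.114 CPM in KI and 3.65, 2.42 and 1.12 CPM in DKO (log2 fold change 3.16, SE 0.75, edgeR adjusted p = 0.0146). Cxcl13, which attracts B cells, fell (log2 fold change -2.49, SE 0.53, edgeR adjusted p = 0.00945) but KI replicate 1, at 9.31 CPM, lay among the DKO values of 8.23, 9.43 and 8.79 CPM. The number of chemokines that rose was 2 without KI replicate 3 and 3 without DKO replicate 2. Of 20 complement genes 3 rose (15.0%), with Cfi, a factor that limits complement, at 1.02 (SE 0.20, edgeR adjusted p = 0.0055), and 3 fell (15.0%), with C4b at -1.53 (SE 0.35, edgeR adjusted p = 0.0131). Without KI replicate 1 or 2 or DKO replicate 2 or 3 only 1 complement gene rose. None of the 10 MHC class II genes passed with edgeR or DESeq2, and 1 was higher at an unadjusted p under 0.05. The same was true of 6 neutrophil markers, again with 1 higher at an unadjusted p under 0.05. Of 43 cell cycle and mitosis genes 2 rose, a share of 4.65% that lay below the 6.53% of all genes. They were Bub1b of the spindle checkpoint (log2 fold change 0.93, SE 0.24, edgeR adjusted p = 0.0226) and E2f2, a cell cycle transcription factor (log2 fold change 1.00, SE 0.28, edgeR adjusted p = 0.0289), and neither passed without KI replicate 3 or DKO replicate 2.

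**Figure D4:**
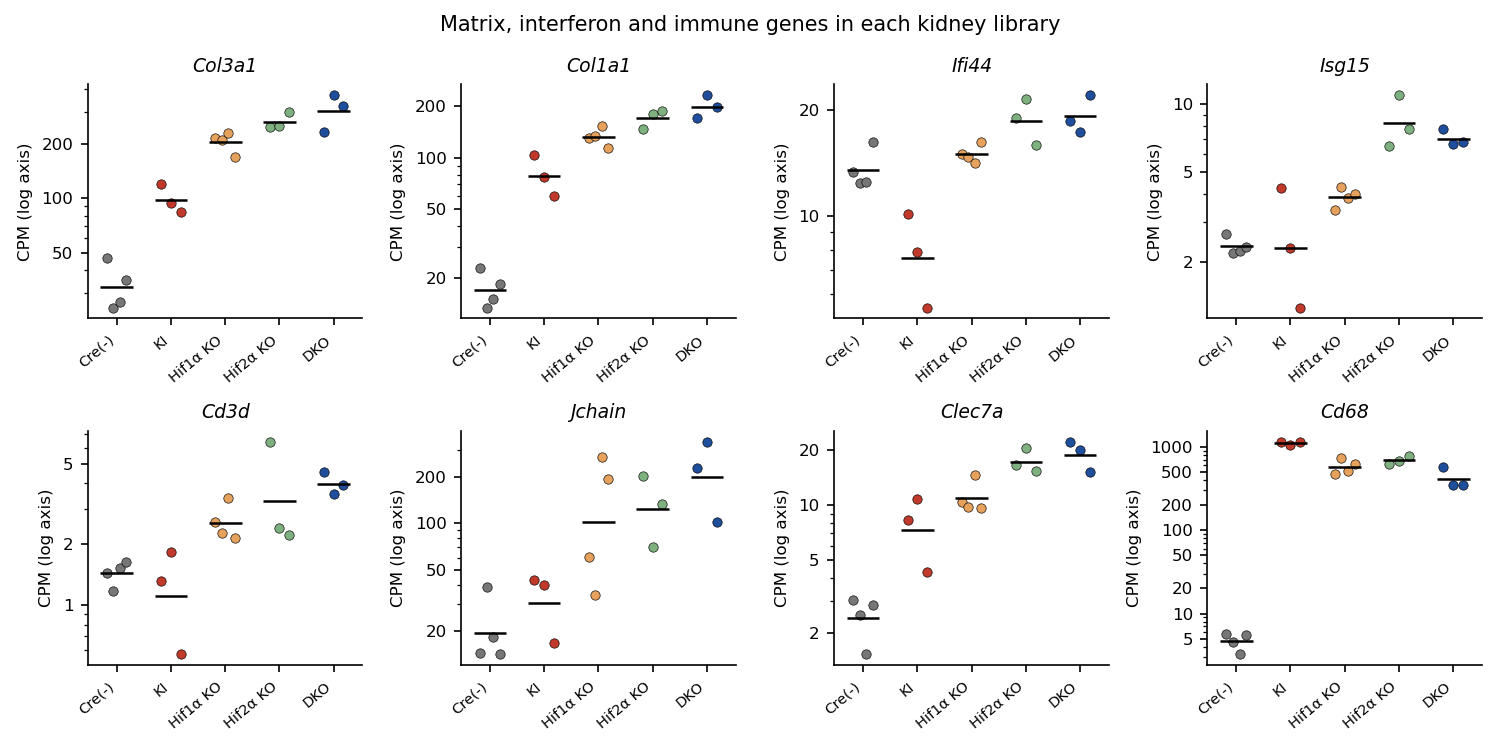
CPM (log axis) of 2 collagens, 2 interferon-stimulated genes, a T cell, a plasma cell and 2 macrophage genes in each library, with bars at the geometric mean of each group. The DKO values lay above all KI values except for Cd68, which fell from 1061 to 1151 CPM in KI to 348.5 to 576.9 CPM in DKO.

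The largest rises by the naming rule included several organic anion transporters. Besides Slc22a7 there was Slc22a19, with 2.76, 1.19 and 1.43 CPM in KI, against 14.1, 47.3 and 19.1 CPM in DKO and 284 to 331 CPM in Cre(-) (log2 fold change 3.91, SE 0.83, edgeR adjusted p = 0.00925). Erich4 had 0.69, 0.377 and 0.97 CPM in KI and 7.60, 9.90 and 8.40 CPM in DKO (log2 fold change 3.66, SE 0.64, edgeR adjusted p = 0.00388) and Tmem207 0.402, 0.162 and 0.114 CPM in KI and 1.71, 4.06 and 2.49 CPM in DKO (log2 fold change 3.57, SE 0.80, edgeR adjusted p = 0.0116). Slc22a22, Slc22a26, Dpys, C8a and Alb were further rises from low levels, and for Slc22a22, Alb and Lypd2 all KI libraries held at most 3 counts, so no fold is given. Among the largest falls, Crisp1 had 5.81, 16.4 and 35.3 CPM in KI and 3.21, 0.685 and 0.927 CPM in DKO and no count in Cre(-) (log2 fold change -3.56, SE 0.85, edgeR adjusted p = 0.02), and Rnase1, a secreted ribonuclease, had 12.0, 9.42 and 8.73 CPM in KI and 1.27, 0.79 and 0.586 CPM in DKO (log2 fold change -3.50, SE 0.65, edgeR adjusted p = 0.00501). Mchr1, a receptor for melanin-concentrating hormone, had 7.30, 20.5 and 41.8 CPM in KI and 3.80, 1.74 and 3.95 CPM in DKO (log2 fold change -2.87, SE 0.49, edgeR adjusted p = 0.00355), and Orm2, an acute phase protein, 6.78, 11.2 and 54.9 CPM in KI and 4.14, 1.90 and 3.61 CPM in DKO (log2 fold change -2.91, SE 0.63, edgeR adjusted p = 0.0101). KI replicate 3 was the highest of the 6 libraries for Crisp1, Mchr1 and Orm2, and also for Apoh, Pax9, Ly6f and Chil3. Vsig4, Cd5l and Chil3 are known as macrophage genes. Vsig4 and Ccnb1ip1 had at most 2 counts in each DKO library.

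Lrmda, a gene linked to melanocyte differentiation, had the smallest p among these largest changes. It stood at 7.30, 7.16 and 7.47 CPM in KI, against 0.39, 0.263 and 0.537 CPM in DKO (log2 fold change -4.17, SE 0.31, edgeR adjusted p = 5.65e-06), and at 4.37 to 5.51 CPM in Cre(-). The single knockouts held 6.45, 5.04, 2.94 and 6.67 CPM (Hif1α KO) and 3.37, 2.93 and 3.29 CPM (Hif2α KO). With edgeR Lrmda was the only gene to differ between DKO and Hif2α KO kidneys (0.00588% of the genes tested). Its log2 fold change was -2.98 (edgeR adjusted p = 0.00105), while 950 genes had an unadjusted p under 0.05. DESeq2 also called others, among them Ndc1 (DESeq2 adjusted p = 0.000395) and Ptger3 (DESeq2 adjusted p = 0.0216). In edgeR, DKO and Hif1α KO kidneys differed in 69 genes (0.406%), of which 15 were higher and 54 lower in DKO. Lrmda was one of the lower ones (log2 fold change -3.71, edgeR adjusted p = 1.91e-05). Of the other genes named above, Hmox1, Plin4 and Mthfd2 were also lower in DKO, whereas Apela was higher (log2 fold change 0.68). Hmox1 had 89.7, 95.3, 135 and 185 CPM in Hif1α KO kidneys, at the level of KI, and Plin4 had 236, 260.4, 245 and 282 CPM there (edgeR adjusted p = 0.0457 and 0.0188 for DKO against Hif1α KO). All values of both genes in the DKO kidneys were lower than those.

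Whether the double knockout did more or less than the sum of the single ones was tested as an interaction, (DKO minus Hif2α KO) minus (Hif1α KO minus KI) on the log2 scale. With edgeR 0 genes passed the threshold, the smallest adjusted p was 0.0754, and 1013 genes (5.95%) had an unadjusted p under 0.05. DESeq2 called 10 genes above and 21 below zero. A difference from the sum was thus not shown for any gene with the main test, which is not evidence that the effects add up. For orientation, the genes that were higher in DKO had a median log2 fold change of 0.87 there, 0.53 in Hif1α KO and 0.62 in Hif2α KO, each relative to KI. For the lower genes the medians were -0.60, -0.38 and -0.37. All 3 comparisons share the KI kidneys, and the genes were chosen on the first. Thick ascending limb markers had medians of 1.08 in DKO, 1.00 in Hif1α KO and 0.72 in Hif2α KO, and HIF targets -0.35, -0.21 and -0.23. Interferon-stimulated genes had 0.60, 0.12 and 0.76, and the difference between DKO and Hif1α KO did not pass for Ifi44, Oas2, Isg15 or Zbp1 (edgeR adjusted p from 0.162 to 0.399).

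Genes that lie near Epas1 were called more often than the rest of its chromosome. Within 10 Mb of its start on chromosome 17, 21 of 68 genes tested (30.9%) differed between DKO and KI, 11 higher and 10 lower, against 82 of 776 (10.6%) elsewhere on the chromosome and 12.7% of all genes. Those with the smallest p were Cox7a2l, Ppp1r21, Pkdcc and Epcam. Around Hif1a on chromosome 12 the share was 23 of 128 (18%) against 90 of 560 (16.1%), and the rest of that chromosome holds the immunoglobulin heavy chain genes. Cox7a2l, a gene of respiratory supercomplex assembly, had 181, 188 and 222 CPM in KI, against 124, 92.4 and 92.3 CPM in DKO (log2 fold change -0.94, SE 0.12, edgeR adjusted p = 0.000908), and 98.1, 110.4 and 108 CPM in Hif2α KO kidneys. Ppp1r21 had 111, 182 and 179 CPM in KI and 70.2, 60.3 and 57.8 CPM in DKO (log2 fold change -1.33, SE 0.17, edgeR adjusted p = 0.00128) and 76.8, 68.8 and 62.9 CPM in Hif2α KO. The Cre(-) kidneys, without a HIF2a flox allele in their labels, had 116 to 129.9 CPM of Cox7a2l and 66.1 to 77.7 CPM of Ppp1r21. Both genes were chosen after their values were seen. Slc8a1, counted above with the distal convoluted tubule, also lies within 10 Mb of Epas1. Genes on a chromosome segment that came with the flox allele and genes that follow its loss cannot be told apart in this design.

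**Figure D5:**
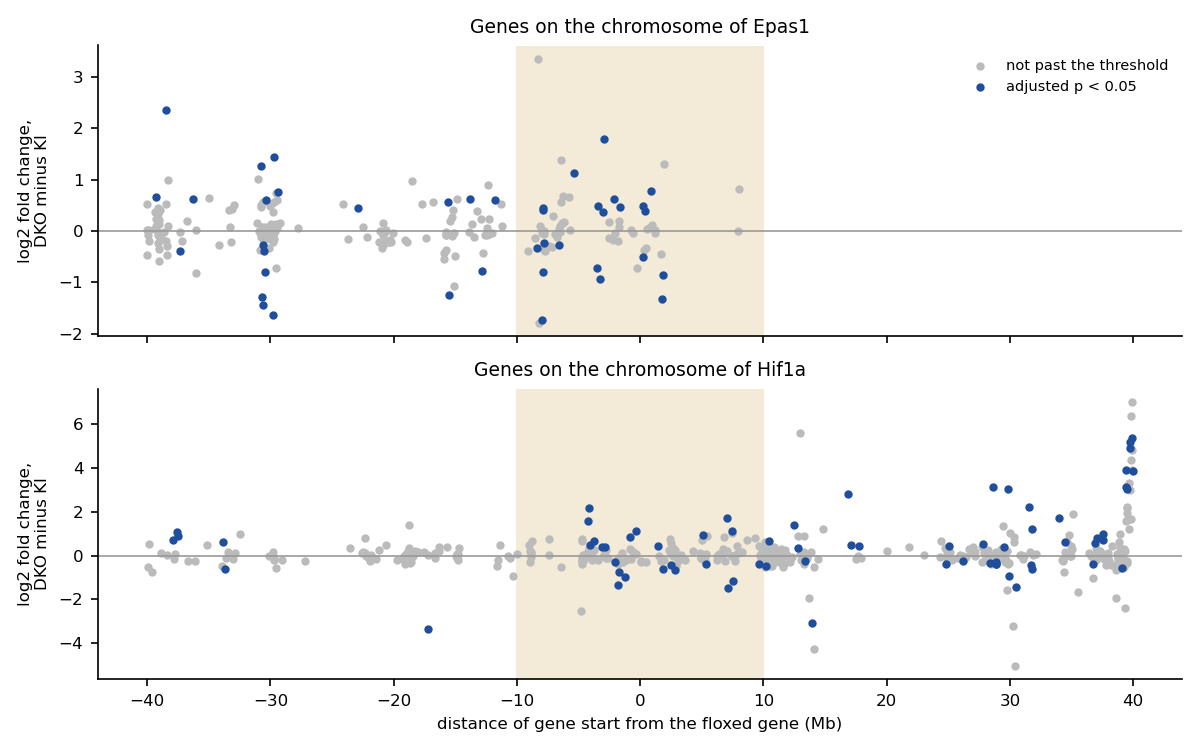
Log2 fold change of DKO relative to KI (y axis) for genes by the distance in Mb of their start from the start of Epas1 (upper panel) or Hif1a (lower panel), with the 10 Mb on either side shaded. Blue points passed an edgeR adjusted p of 0.05, as 21 of 68 did in the shaded part around Epas1 and 23 of 128 around Hif1a.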

How the data were processed

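Libraries of mouse kidney mRNA kept the strand and were read from a single end. The methods name Trim Galore 0.6.6 with cutadapt 2.5, STAR 2.7.9a and RSEM, with alignment to hg38 and an annotation from hg38 or GRCm38. The deposited transcripts are mouse ones, and GENCODE M21 (GRCm38) was used here. The authors deposited expected counts per transcript, which are not normalized, and TPM, which is scaled for length and library. In this work 116770 of 119353 transcripts were summed to 35971 genes and rounded.

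All 17 libraries were fitted at once with edgeR 4.0.16 (R 4.3.3; TMM, filterByExpr with a minimum count of 10, 17011 genes kept), with a coefficient per group and a threshold of 0.05 on the adjusted p. The precision is set by 3 kidneys per group and 16504419 to 24668827 counts per library. The comparison, its members and 41 gene lists were chosen with earlier results of these data known. Genes named are the 12 largest changes a direction without overlap and with a mean of at least 1 TPM, up to 4 members a direction of each list, and a fixed set, of which some are not reported here. Alternatives were DESeq2 1.42.0, its size factors, no filter, a replicate block, limma 3.58.1 on log2(TPM + 1) and log2(TPM + 0.1), an adipocyte covariate, other sample sets and each replicate left out. Direct contrasts with the single knockouts and the regions near the floxed genes were added after the data were seen. The scripts were tested on a single simulated data set, drawn with the spread that edgeR had estimated. There 4.1% of the calls of the main test and 13.7% of those of DESeq2 were false. Figures were made with matplotlib 3.10.9.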

Additional observations from a re-analysis of the deposited data

Results flagged for a closer look

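These results were picked out because 2 knockout groups that share the KI reference differed in a direct test of the difference by edgeR. Between DKO and Hif1α KO kidneys 69 genes differed, and between DKO and Hif2α KO kidneys 1 gene did, Lrmda. Outside the naming rule, and chosen after its values were seen, Gm6969, a predicted gene on chromosome 12, had the smallest p of the first set. It had 43.2, 82.3 and 75.9 CPM in DKO and 84.1, 90.7 and 83.5 CPM in Hif2α KO kidneys, against 0.402, 0.431 and 1.08 CPM in KI, 0.358, 0.675, 1.05 and 0.82 CPM in Hif1α KO and 0 to 1.33 CPM in Cre(-) kidneys. The 2 groups that carry the HIF2a flox allele therefore stood above every other library for this gene.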

How the results depend on the processing

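No gene named as changed turned direction under any alternative that was run. Of the 150 called genes among those named, those that lost the threshold numbered 81 without DKO replicate 2, 75 without KI replicate 3, 71 without DKO replicate 3, 46 without KI replicate 2, 27 without KI replicate 1 and 20 without DKO replicate 1, and 59 of 147 in a fit of the KI and DKO libraries alone. The counts of genes higher and lower in DKO were 526 and 502 with the KI and DKO libraries only, 459 and 230 when an absolute log2 fold change of at least 1 was also asked for, and 1206 and 520 with limma on log2(TPM + 1), where log2(TPM + 0.1) gave 1126 and 463. DESeq2 gave 1446 and 1459, no filter 967 and 794, the adipocyte covariate 1027 and 978, the fit without the Cre(-) libraries 894 and 1024, and DESeq2's size factors 1109 and 1057. Leaving out 1 replicate gave 369 to 1165 higher and 353 to 1126 lower genes. For the interaction DESeq2 called 10 above and 21 below zero, and leaving out 1 replicate gave 0 to 1 in either direction. The replicate numbers of KI and DKO share only a number, since same-numbered kidneys deviated with correlations of 0.061, -0.044 and 0.146 across genes. With the replicate block the counts were 914 higher and 798 lower, and 21 of the 150 named genes lost the threshold. The cause of these shifts was not tested, except that fits with fewer samples have less power by construction.

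Reversals were seen in genes that did not pass the main test. Over the fits without 1 replicate, log2 fold changes ran from -2.51 to 0.65 for Hba-a2, -2.29 to 0.93 for Hbb-bs and -0.45 to 0.14 for Slc2a1, each turning without KI replicate 3. They ran from -0.245 to 0.51 for Uty, turning without DKO replicate 2, from -0.002 to 0.77 for Fasn, turning without DKO replicate 1, and from -0.45 to 0.30 for Acaca, turning without KI replicate 2 or DKO replicate 2 (0.15). With limma on log2(TPM + 1) Acaca was at 0.001. A covariate of Y-linked genes was not run, because no 2 sets of libraries with and without these genes occurred. Depth limits genes near 3 counts per library, and no fold is given where every library of a group held at most 3 counts.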

Other observations

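Some genes, chosen after their values were seen, were high in the Hif1α KO kidneys alone, with DKO and Hif2α KO near or below KI. Gclc, which sets the rate of glutathione synthesis, had 974, 932, 1189 and 1348 CPM in Hif1α KO, 399, 462 and 711 CPM in KI, 576, 411 and 441 CPM in Hif2α KO and 376, 332 and 444 CPM in DKO (edgeR adjusted p = 0.00464 for DKO against Hif1α KO). Pdk4, a pyruvate dehydrogenase kinase raised in fasting, had 702, 745, 457 and 664 CPM in Hif1α KO and 116, 108 and 211 CPM in DKO (edgeR adjusted p = 0.0112). Its KI and Hif2α KO ranges were 187.6 to 371.5 and 167.9 to 242.1 CPM. Fkbp5, a glucocorticoid-induced chaperone, had 378, 259, 321 and 335 CPM and 57.2, 48.1 and 104 CPM (edgeR adjusted p = 0.0457). Its KI kidneys spread over 62.7 to 235.8 CPM and its Hif2α KO kidneys over 54.1 to 90.3 CPM. These p-values compare DKO with Hif1α KO, not Hif1α KO with KI.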
